A study of Mus musculus with 27 samples.

Results

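The epicardium is the mesothelial layer on the outer surface of the heart. Its cells arise from the proepicardium, spread over the myocardium as an epithelial sheet and give rise to cardiac fibroblasts and mural cells. To determine if H3K4 methylation was called lower at genes that mark this layer when *Kmt2d* was deleted from the myocardium, 7 epicardial marker genes were examined out of 22367 annotated protein-coding genes. The genes were *Wt1*, *Tcf21*, *Bnc1*, *Upk3b*, *Upk1b*, *Msln* and *Krt19*, chosen as markers of cells in which *Tnnt2::Cre* should leave *Kmt2d* intact. The rule itself uses no measured value, but it was set with earlier results of these data known. Each gene was given the merged H3K4 methylation regions that lay in its body or within 5 kb of any of its annotated transcription start sites (TSS), which gave 46 of the 358833 merged regions of the series. No region belonged to more than 1 of the 7 genes.

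Embryonic hearts were taken at E11.5 from C57BL/6 mice. Control hearts were *Tnnt2::Cre;Kmt2d fl/+* (titled WT, although they carry a floxed copy and the Cre transgene) and mutant hearts were *Tnnt2::Cre;Kmt2d fl/fl*. Embryos of either genotype also carried 1 copy of the Rosa26 *mTmG* Cre reporter. Cre was driven by the *Tnnt2* promoter, which is active in heart muscle cells, so non-muscle cells of mutant hearts should keep *Kmt2d*. Each genotype had 3 pools of 30 whole hearts, and every pool was divided into input, H3K4me1, H3K4me2 and H3K4me3 chromatin immunoprecipitations. In pools of whole hearts, a change in the number of cells of a type and a change of the mark in each cell cannot be told apart.

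KMT2D is a histone methyltransferase that acts on H3K4. Enhancers carry mostly the monomethylated form and active promoters the trimethylated form, while the dimethylated form occurs at either. The authors' lists give regions without read counts, so the depth behind a region and its value in each pool are unknown. The merged list also does not say which of the 3 marks a region carries, and no list of regions with changed H3K4me3 was analysed here. A region was counted as decreased where an identical region stood in the authors' list for H3K4me1 or H3K4me2. Expression was not analysed here, so whether the 7 genes were active in these pools was not tested.

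None of the 46 regions was in either decreased list. For H3K4me1, 0 of 46 regions were listed, against 0.761% of all merged regions, and for H3K4me2, 0 of 46 were listed, against 1.87%. A count of 0 in 46 allows a share of up to 6.52% (3 regions of the total, counting error only), which lies above either background share. By gene, 0 of 7 had a region with decreased H3K4me1, against 7.08% of the 20025 coding genes with a merged region under the same rule. For decreased H3K4me2 the count was again 0 of 7, against 28.7% of those genes. The 25 regions of at least 500 bp are among the 46 regions, so their counts could only be 0. Of all merged regions of that width, 1.33% were listed for H3K4me1 and 3.60% for H3K4me2. All 7 genes had a TSS inside a merged region, as did 70.4% of all coding genes. In none of them was that region decreased for H3K4me2, whereas 29.2% of the 15752 coding genes with a TSS region had such a loss. The corresponding background for H3K4me1 was 1.29%. With 7 genes, the same allowance of 3 counts gives a share of up to 42.9%, a rough limit that is too wide for so few genes. In so small a set, the absence of calls did not set these genes apart from coding genes in general.

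The promoters of the 7 genes differed in sequence. For each gene, 250 bases before and 30 bases after the upstream-most coding TSS were read from the NCBIM37 (mm9) assembly, and the CpG ratio was computed as observed over expected CpG. Vertebrate promoters divide broadly into those rich in CpG, which are often active in many tissues, and those poor in CpG, which are often restricted to a few. The 2 extremes and 2 transcription factor genes between them are printed from 5′ to 3′ on the strand of the gene, with each CpG in capitals, to show this contrast. They lie at chr7:89137156-89137435 (minus strand) for *Bnc1*, chr2:104966436-104966715 (plus strand) for *Wt1*, chr10:22539905-22540184 (minus strand) for *Tcf21* and chr5:136514116-136514395 (plus strand) for *Upk3b*.
*Bnc1* promoter: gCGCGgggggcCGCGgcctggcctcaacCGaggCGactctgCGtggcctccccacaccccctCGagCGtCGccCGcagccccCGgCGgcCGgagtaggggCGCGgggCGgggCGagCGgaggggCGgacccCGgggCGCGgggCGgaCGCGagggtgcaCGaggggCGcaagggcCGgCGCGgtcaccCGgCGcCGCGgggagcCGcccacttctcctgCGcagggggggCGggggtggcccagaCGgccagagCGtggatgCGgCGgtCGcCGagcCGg
*Wt1* promoter: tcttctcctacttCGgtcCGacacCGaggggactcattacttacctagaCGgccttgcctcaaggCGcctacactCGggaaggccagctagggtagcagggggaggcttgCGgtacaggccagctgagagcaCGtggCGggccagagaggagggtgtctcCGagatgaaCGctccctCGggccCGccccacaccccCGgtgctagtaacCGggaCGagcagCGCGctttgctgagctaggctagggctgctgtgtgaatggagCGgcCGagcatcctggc
*Tcf21* promoter: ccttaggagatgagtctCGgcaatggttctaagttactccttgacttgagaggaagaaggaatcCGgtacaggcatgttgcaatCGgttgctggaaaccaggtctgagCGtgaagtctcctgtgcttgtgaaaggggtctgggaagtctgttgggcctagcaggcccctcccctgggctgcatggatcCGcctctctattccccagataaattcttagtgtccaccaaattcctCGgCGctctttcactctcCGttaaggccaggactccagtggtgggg
*Upk3b* promoter: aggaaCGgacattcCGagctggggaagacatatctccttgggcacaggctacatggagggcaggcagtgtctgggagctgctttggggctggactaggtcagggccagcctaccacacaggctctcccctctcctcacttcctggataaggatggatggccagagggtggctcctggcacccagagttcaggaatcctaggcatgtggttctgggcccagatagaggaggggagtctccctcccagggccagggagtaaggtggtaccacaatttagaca

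*Bnc1* had 45 CpG in this window, a ratio of 0.95 and a GC content of 82.9%, which was higher than in 99.5% of the 22362 coding promoters read. *Wt1* had 20 CpG and a ratio of 0.69. The remaining 5 genes were all below 0.6. *Tcf21* had 8 CpG and a ratio of 0.39, *Msln* 7 and 0.28, *Upk1b* 6 and 0.27, *Krt19* 4 and 0.25, and *Upk3b* 2 and 0.08. The median ratio of coding promoters was 0.53. So the 3 surface protein genes, the keratin gene and *Tcf21* had CpG-poor promoters, and *Wt1* and *Bnc1* did not.

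*Wt1* encodes a zinc-finger transcription factor that is required in the epicardium. The gene lies on chromosome 2 (104966686 to 105013773, plus strand) and had 11 merged regions, the widest of all 46 among them. That region was 12160 bp wide (chr2:104965306-104977465) and reached from 1380 bp upstream of the coding TSS to 10779 bp downstream, over coding exons and 5′ untranslated sequence. It also held a TSS of *AI314831*, a neighbouring annotated gene. Of the 8 annotated *Wt1* TSS, 7 lay inside it, and the remaining TSS, that of a retained-intron transcript, lay in no region. A region of 2140 bp lay upstream. The 9 regions further into the gene were from 140 to 4580 bp wide, and the widest of them was intronic (104978246 to 104982825). Only 3 of the 11 regions were narrower than 500 bp.

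*Tcf21* encodes a basic helix-loop-helix factor needed for the epicardial cells that become fibroblasts. It is the shortest of the 7 genes (chromosome 10, 22537085 to 22539934, minus strand), and the whole of it lay within a single region of 8100 bp (22535546 to 22543645). This region covered both untranslated regions and the coding sequence, and extended 3711 bp upstream of the TSS. *Tcf21* was the gene with the fewest regions and the most completely covered.

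*Bnc1* encodes basonuclin 1, a zinc-finger protein of mesothelium and stratified epithelium. On chromosome 7 (89111558 to 89137185, minus strand) it had 11 regions, none wider than 2000 bp. The region of 2000 bp held the upstream TSS (89135946 to 89137945) together with a TSS of *4833418N17Rik*. A second region of 800 bp (89113266 to 89114065) held the TSS of a short coding transcript near the end of the gene. The other regions within the gene were from 60 to 1220 bp wide, and a region of 1240 bp lay upstream.

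The next 3 genes encode proteins of the cell surface. *Upk3b* and *Upk1b* encode uroplakins, membrane proteins first known from the lining of the bladder, and *Upk1b* belongs to the tetraspanins. *Upk3b* (chromosome 5, 136514366 to 136521173, plus strand) had a region of 3540 bp over the TSS and a region of 100 bp upstream. The TSS region was nearly one-sided, with 120 bp upstream of the TSS and 3419 bp downstream. *Upk1b* (chromosome 16, 38773297 to 38800316, minus strand) had 15 regions, the most of any member, but 11 of them were narrower than 500 bp. Its TSS region was 3700 bp wide (38798126 to 38801825) and reached from 1509 bp upstream of the TSS to 2190 bp downstream. Within the gene it held 5′ untranslated sequence but no coding sequence. *Msln* encodes mesothelin, a mesothelial surface glycoprotein that binds MUC16. At *Msln* (chromosome 17, 25885559 to 25891272, minus strand) the TSS region of 3380 bp lay almost wholly upstream, with 3033 bp before the TSS and 346 bp after it. Its 3 other regions were 120, 120 and 580 bp wide.

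*Krt19* encodes a type I keratin of simple epithelia. The gene (chromosome 11, 100002124 to 100009979, minus strand) had 2 regions. The wider region of 5260 bp (100005626 to 100010885) held 2 of the 3 annotated TSS, including that of the coding transcript. The other, of 2740 bp, covered the end of the gene with its 3′ untranslated region. The TSS outside both belonged to a non-coding processed transcript.

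**Figure D1:**
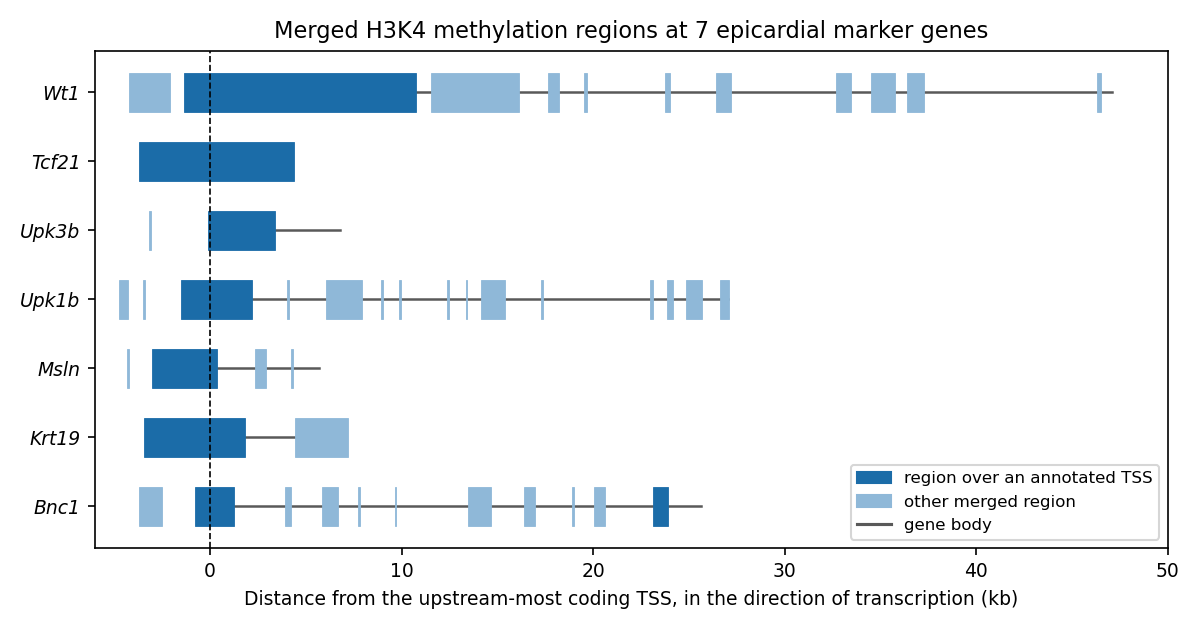
Merged regions (boxes) at each of the 7 genes, plotted by distance in kb from the upstream-most coding TSS in the direction of transcription. Dark boxes hold an annotated TSS, light boxes do not, and the grey line is the gene body. All 7 genes have a dark box at 0, *Wt1* has the widest (12160 bp) and *Upk1b* has 15 boxes.

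Over the 46 regions, 8 held a TSS of the gene, 11 held an exon but no TSS, 21 were intronic and 6 lay upstream of the gene. The median width was 560 bp (quartiles 125 and 1240 bp), against 320 bp for all merged regions, and 21 of the 46 were under 500 bp. In all, 15 of the 17 annotated TSS of the 7 genes lay inside a region. The covered share of the gene body with its 5 kb windows was 81.0% at *Tcf21*, 53.5% at *Krt19*, 45.5% at *Wt1* and 39.2% at *Msln*. It was 30.8% at *Upk3b*, 30.3% at *Upk1b* and 23.3% at *Bnc1*. Each of these was above the median of 18.8% over all coding genes. That median includes coding genes without a TSS region, whereas all 7 members had one. The fixed windows make up more of the span of a short gene, and the part of gene length in this order was not tested.

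The width of the TSS region ranked the genes differently. *Wt1* had a wider TSS region than 94.8% of the coding genes with such a region, *Tcf21* than 86.8% and *Krt19* than 69.7%. *Upk1b*, *Upk3b* and *Msln* were near the median of 3720 bp, wider than 49.6%, 46.9% and 43.9% of those genes. *Bnc1* was wider than 18.0%. The share of coding genes with decreased H3K4me2 over the TSS was larger in each wider class. Below 1000 bp it was 1.78%, and 0.238% had decreased H3K4me1. From 1000 to under 2000 bp the shares were 9.96% and 0.352%. Where the widest TSS region measured from 2000 to under 4000 bp, as in 4 of the members, 26.3% of genes had that region in the H3K4me2 list and 0.509% had it in the H3K4me1 list. From 4000 to under 8000 bp, the class of *Krt19*, the shares were 34.9% and 0.763%. From 8000 to under 16000 bp, the class of *Wt1* and *Tcf21*, they were 40.1% and 1.67%, and at 16000 bp or more, where no member lay, 55.1% and 7.71%. None of the 7 genes fell in the classes under 2000 bp, although *Bnc1* lay on that limit.

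**Figure D2:**
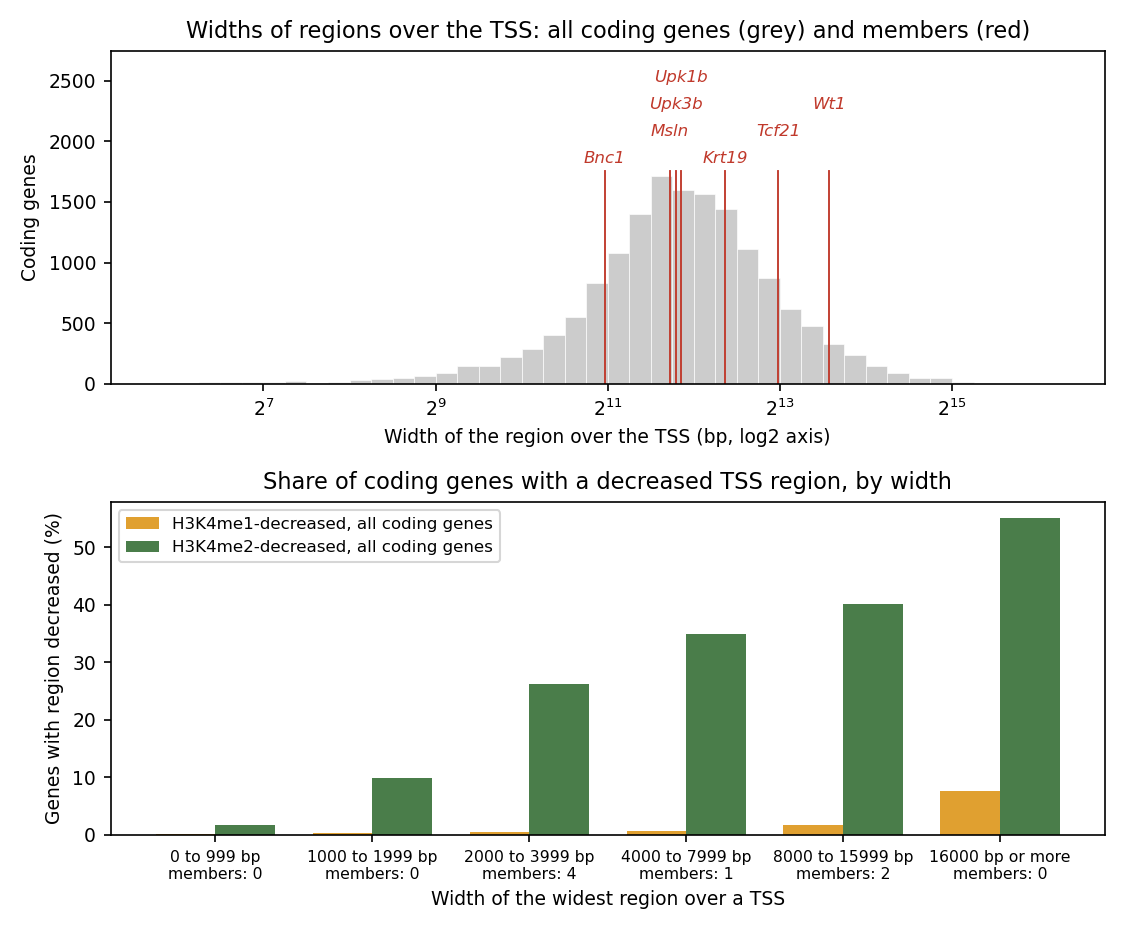
Upper panel, number of coding genes by width of their widest TSS region in bp on a log2 axis, with the 7 members as red lines. Lower panel, percentage of coding genes in each width class whose widest TSS region was decreased for H3K4me1 or H3K4me2, with the number of members in the class. The share for H3K4me2 rises from 1.78% under 1000 bp to 55.1% at 16000 bp or more, and the members lie between 2000 and 12160 bp.

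A TSS region was found at 97.4% of coding genes with a ratio of at least 0.6 and at 48.7% of those under 0.6. All 5 CpG-poor members had one. Decreased H3K4me2 over the TSS was called at 16.7% of the 6022 CpG-poor genes with a TSS region, against 37.0% of 9727 genes at or above 0.6. For H3K4me1 the shares were 1.74% of the CpG-poor and 1.01% of the other genes. Among coding genes of the same width class and CpG class, 15.5% had a TSS in an H3K4me2-decreased region in the class of *Upk3b*, *Upk1b* and *Msln*. The share was 23.0% in that of *Krt19*, 33.6% in that of *Bnc1*, 35.6% in that of *Tcf21* and 47.0% in that of *Wt1*. In the class of every member, genes without a call thus outnumbered those with one.

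**Figure D3:**
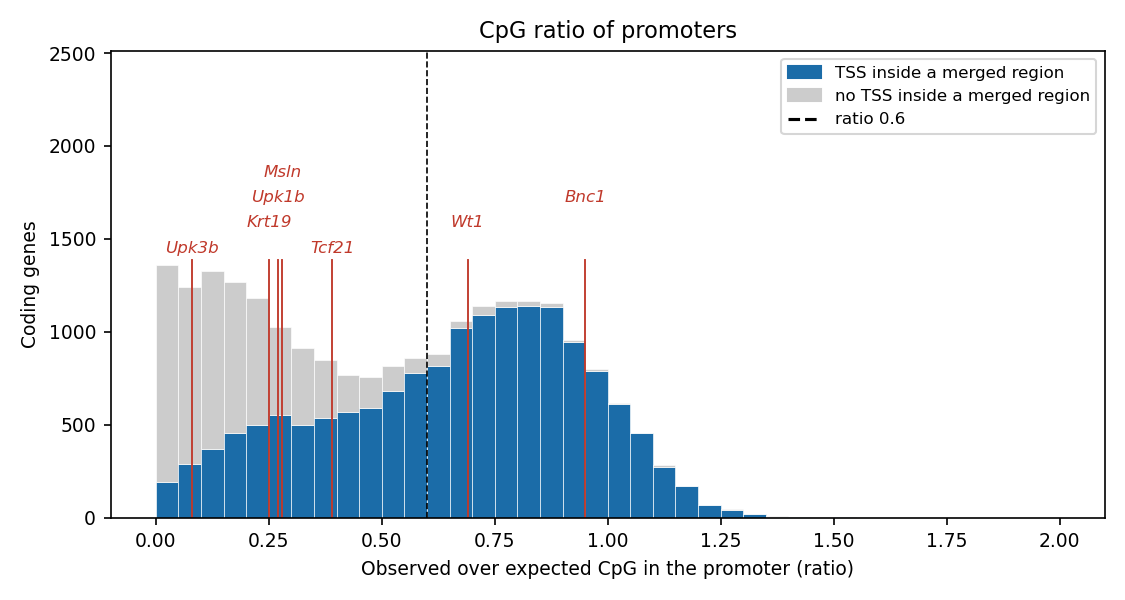
Number of coding genes by the CpG ratio of their promoter (250 bases before to 30 after the TSS), with genes that had a TSS region in blue and the others in grey. Red lines mark the 7 members, and the dashed line marks a ratio of 0.6. *Wt1* and *Bnc1* lie to the right of it and the other 5 to the left, where 48.7% of genes had a TSS region.

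Short motifs were searched on both strands of the same windows. The GC box GGGCGG, bound by Sp factors, was found at 4 of the 7 genes (*Wt1*, *Msln*, *Krt19* and *Bnc1*, the last with 5 matches) and at 42.7% of coding promoters. CATTCC, bound by TEAD factors, was found at *Upk3b* and *Upk1b* and at 12.7% of coding promoters. AGATAA, bound by GATA factors, was found only at *Tcf21* among the 7 and at 9.97% of coding promoters. GCGTGGG, the shared core of EGR and WT1 sites, and TATAAA were found at none of the 7, and at 5.47% and 13.0% of coding promoters. A match describes the letters in the window and not a bound site.

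The nearest decreased regions were then located. The gap from the gene to the nearest H3K4me2-decreased region was 16.7 kb at *Krt19*, 31.2 kb at *Bnc1*, 37.9 kb at *Upk3b* and 58.8 kb at *Upk1b*. It was 81.8 kb at *Msln*, 253 kb at *Wt1* and 817 kb at *Tcf21*. The median gap over all coding genes was 50.4 kb, so 4 of the 7 genes lay farther away than that. For H3K4me1 the gap ran from 30.2 kb at *Upk3b*, through 77.9 kb at *Tcf21*, 81.5 kb at *Upk1b*, 116 kb at *Bnc1*, 137 kb at *Msln* and 238 kb at *Krt19*, to 1455 kb at *Wt1*. Only *Wt1* exceeded the coding median of 296 kb. *Wt1* thus lay in a stretch without any call, with 49 merged regions between it and the nearest H3K4me2-decreased region and 300 between it and the nearest H3K4me1-decreased region.

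When the window was widened from 5 kb to 100 kb, which was chosen after seeing the data, 2 of the 7 genes (*Tcf21* and *Upk3b*) had a region with decreased H3K4me1, against 25.5% of coding genes. Decreased H3K4me2 was then found for 5 of the 7, all but *Wt1* and *Tcf21*, against 62.1% of coding genes. The window holds many other genes, so these regions need not belong to the members. It was measured from each TSS, whereas the gaps above were measured from the edge of the gene. The H3K4me1-decreased region 81.5 kb downstream of *Upk1b* therefore lay outside the window.

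**Figure D4:**
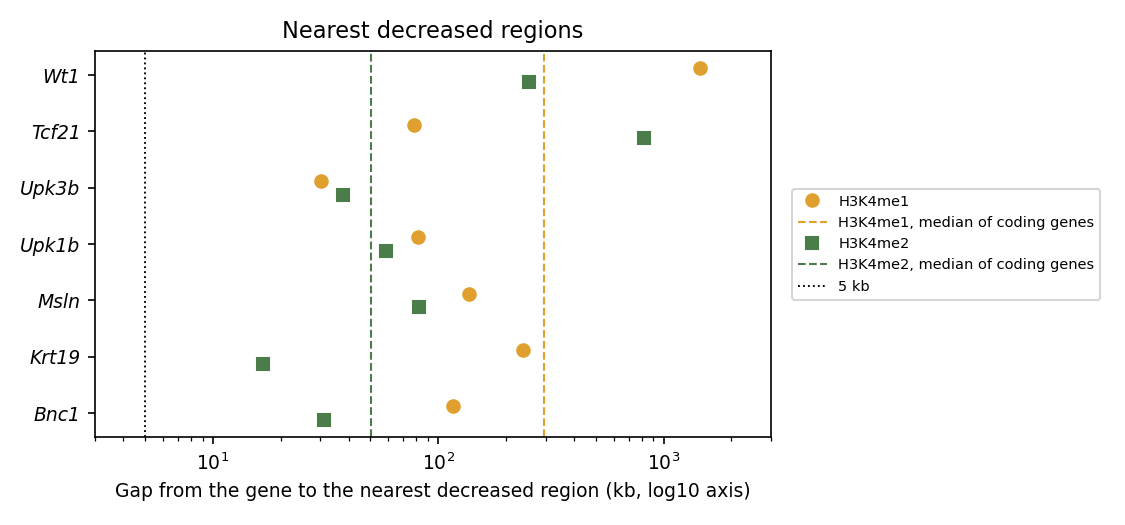
Gap in kb (log10 axis) from each of the 7 genes to the nearest region with decreased H3K4me1 (circles) and decreased H3K4me2 (squares). Dashed lines mark the medians over all coding genes and the dotted line marks 5 kb. Every point lies beyond 5 kb, the nearest being *Krt19* at 16.7 kb for H3K4me2 and the farthest *Wt1* at 1455 kb for H3K4me1.

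Several of these losses lay over the promoter of another gene. The H3K4me2-decreased region nearest to *Tcf21* held a TSS of *Sgk1*, that nearest to *Upk3b* a TSS of *Rasa4*, that nearest to *Upk1b* a TSS of *Arhgap31* (15260 bp wide) and that nearest to *Bnc1* a TSS of *Hdgfrp3*. The H3K4me1-decreased region nearest to *Krt19* was 18700 bp wide and held TSS of *Jup*, which encodes the cell junction protein plakoglobin, and of *Gm12348*. The nearest H3K4me2-decreased regions to *Wt1* and *Msln* were only 60 bp wide and held no TSS. The closest TSS to them were those of *Gm13887* and *Lmf1*.

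A pair of narrow regions are printed. The first had a member as the gene of its nearest TSS, and the second had the smallest gap to a member. An H3K4me1-decreased region of 80 bp (chr10:22617786-22617865) lay 77.9 kb upstream of *Tcf21*, with 16 merged regions between, and no other annotated TSS was nearer to it than that of *Tcf21*. It was the only such region among the nearest decreased regions of the 7 genes. An H3K4me2-decreased region of 160 bp (chr11:99985286-99985445) lay 16.7 kb downstream of *Krt19*, closer than any other, and its nearest TSS was that of the keratin gene *Krt13*. Both are given on the plus strand of NCBIM37, with CpG in capitals.
H3K4me1-decreased region upstream of *Tcf21*: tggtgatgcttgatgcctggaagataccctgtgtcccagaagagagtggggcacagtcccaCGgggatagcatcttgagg
H3K4me2-decreased region downstream of *Krt19*: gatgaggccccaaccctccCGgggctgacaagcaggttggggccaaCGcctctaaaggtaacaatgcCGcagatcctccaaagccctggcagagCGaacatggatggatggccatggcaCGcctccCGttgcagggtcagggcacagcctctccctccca

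To compare with other genes of this layer, a list of 21 further epicardial and mesothelial genes was examined under the same rule. Of these, 19 had a TSS region, and 5 of the 19 (26.3%) had a TSS in an H3K4me2-decreased region, against 29.2% of coding genes. None of the 19 had one in an H3K4me1-decreased region. The genes with decreased H3K4me2 were *Gata4*, *Gata5*, *Gata6* and *Hand2*, which encode transcription factors, and *Igf2*, which encodes a growth factor. The list was not limited to genes of the epicardium alone, and the part of expression site in these calls was not tested. *Gata4* had the widest decreased region, at 48800 bp, followed by *Gata6* at 38180 bp, *Hand2* at 29560 bp, *Gata5* at 21700 bp and *Igf2* at 12220 bp. The other 14 genes with a TSS region had widths from 1160 to 12360 bp (the widest at *Scx*), with a median of 4180 bp. These included *Tbx18* (7360 bp), which encodes a transcription factor, *Aldh1a2* (3240 bp), *Lrrn4* (4740 bp) and *Krt18* (5760 bp), none of them with a decreased region. Of the 7 members, only *Wt1* (12160 bp) had a TSS region close in width to the narrowest of these decreased regions. Away from the TSS, *Gata4* had an intronic H3K4me1-decreased region of 2400 bp and *Fgf9* had another of 60 bp.

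Paralogues and other relatives of the members were examined next. Of 9 relatives, 5 had a TSS region, against all 7 members and 70.4% of coding genes. These numbers are too small to set either list apart. *Upk1a*, *Mslnl*, *Krt15* and *Krt17* had none, and *Mslnl*, next to *Msln*, had no merged region at all. *Upk3a* had a TSS region of 2760 bp and *Upk2* one of 1420 bp, both narrower than those of *Upk3b* and *Upk1b*. *Bnc2*, the paralogue of *Bnc1*, had a wider TSS region than *Bnc1*, at 4620 bp against 2000 bp. Among the relatives, *Bnc2* had an intronic H3K4me2-decreased region of 1480 bp, among 89 merged regions, and *Krt13* had the region of 160 bp described above. No relative had a TSS in a decreased region.

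Markers of the other cell types of the heart were set beside these counts. Of 12 cardiomyocyte markers, where Cre is active, 2 had a TSS in an H3K4me2-decreased region (*Actc1* and *Myl2*) and 2 had one in an H3K4me1-decreased region (*Myl3* and *Ryr2*), against 29.2% and 1.29% of coding genes with a TSS region. In all, 4 of the 12 had any H3K4me2-decreased region, close to the 28.7% of coding genes, and 4 had any H3K4me1-decreased region, against 7.08%. These 12 genes held 225 merged regions, and the median over coding genes was 4 per gene. *Ryr2* alone had 123 regions and 6 of the 9 that were H3K4me1-decreased in this list. The part of region number in these counts was not tested. Of 9 endothelial and endocardial markers, 0 had an H3K4me2-decreased region and 1 (*Pecam1*) had an H3K4me1-decreased region. Of 6 mesenchyme markers none had either, and of 5 blood markers 2 (*Klf1* and *Hba-a1*) had an H3K4me2-decreased region. In both cases it lay beside the gene and held a TSS of other genes, not of the marker. With 28.7% of coding genes called for H3K4me2, a count of 0 does not set the mesenchyme or epicardial list apart, taken separately. The 9 endothelial genes held 153 merged regions, and whether their count of 0 departs from the background was not tested. The lists were not tested together. The cardiomyocyte markers had TSS regions of 12220 bp at the median, against 3700 bp for the epicardial genes, 7920 bp for the endothelial and 6310 bp for the mesenchyme markers. The part of width in these counts was not tested.

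**Figure D5:**
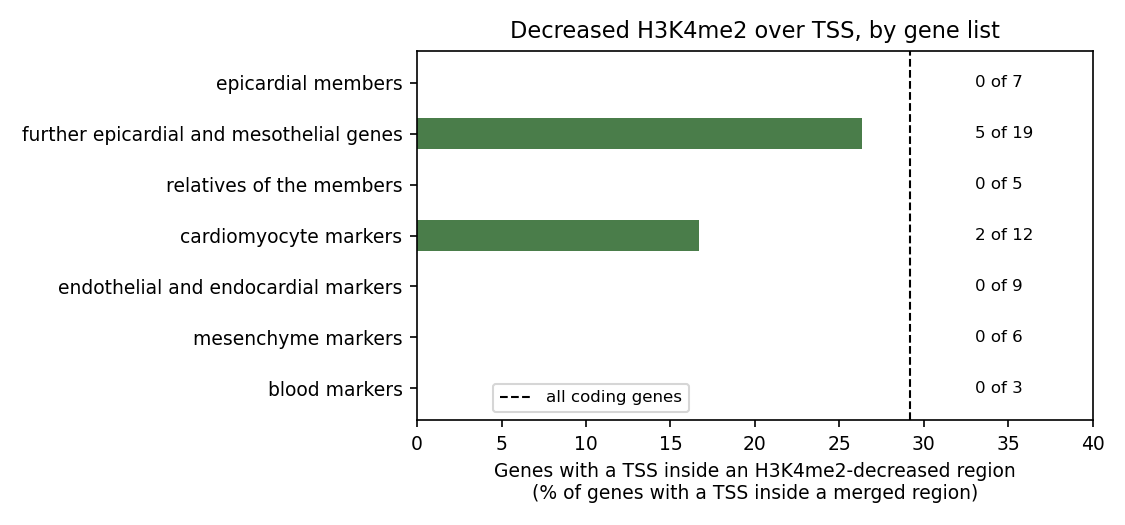
Percentage, among the genes of a list that had a TSS region, of those whose TSS lay in an H3K4me2-decreased region, for the 7 epicardial members and 6 comparison lists, with the counts at the right. The dashed line marks all coding genes (29.2%). The bars for the further epicardial genes (5 of 19) and the cardiomyocyte markers (2 of 12) end left of the line, and the other lists are at 0.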

How the data were processed

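H3K4me1, H3K4me2 and H3K4me3 ChIP-Seq libraries of E11.5 control and mutant hearts (24 of the 27 libraries, inputs included) were reduced by the authors to region lists. Per the labels, reads were handled with CASAVA 1.8.2, FastQC, Bowtie, Bowtie2 and SAMtools on mm9. The authors called peaks, merged them over replicates and marks, and listed decreased regions under a false discovery rate limit that they set. The deposited lists hold 2730 regions for H3K4me1 and 6699 for H3K4me2. The length of the H3K4me2 list is not the one the study describes, and it was used as deposited. The peak caller and the differential test are left by the study to supplementary methods that were not used here. The deposited columns are chromosome, start and end, with no level, score or *P* value. Every decreased region had an identical merged region.

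The labels name mm9, which is NCBIM37, and all regions lay within its chromosomes. Genes, TSS, exons and untranslated regions came from GENCODE vM1. Coordinates are 1-based. Regions were assigned by an overlap of at least 1 bp with Python 3.11.15, and sequences were read with pysam 0.24.0. The assignment was tested on simulated regions. No test was run, as the lists hold no replicate values. Counts are given beside those over all coding genes or regions, which are not independent of each other. The members, gene lists, motifs and width and CpG classes were chosen with earlier results of these data known. Named genes were the members, list genes with a decreased region, genes of the nearest decreased regions, genes sharing a TSS region with a member, and up to 4 per other list. *Scx*, *Tbx18*, *Aldh1a2*, *Lrrn4*, *Krt18* and the unmarked relatives were named after their values were seen, as were the cardiomyocyte markers with a TSS in a decreased region. *Kmt2d* itself, annotated as *Mll2*, had 11 merged regions and 0 decreased, which does not measure its deletion.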

Additional observations from a re-analysis of the deposited data

How the results depend on the processing

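Of 78 alternative values over 10 results, 69 stayed within the tolerance, which was a factor of 1.5 for counts and a 95% confidence interval for shares and the median width. Within that tolerance, the 46 regions became 36 to 59, the median width of 560 bp became 540 to 840 bp, and the further epicardial genes became 3 in place of 2 for H3K4me1 (10 kb window) and 4 in place of 5 for H3K4me2 (most of a region required inside the gene or window). Within 10 kb or less of the TSS, no alternative gave a decreased region at any of the 7 genes. Only the 10 kb and 100 kb windows could have added regions to these genes. The other alternatives kept or reweighted regions among the 46, none of them listed, so their counts and shares of 0 were fixed in advance. Part of the 69 is therefore no sign of stability. Leaving out the gene body gave 24 regions in place of 46, and 0 in place of 2 further epicardial genes with decreased H3K4me1. Keeping only regions of at least 500 bp gave 25 regions with a median of 1240 bp, and 1 further gene with decreased H3K4me1. Each follows from fewer regions being kept. With a window of 100 kb, chosen after seeing the data, 2 of the 7 genes had a region with decreased H3K4me1 and 5 had one with decreased H3K4me2, against 25.5% and 62.1% of coding genes. For the further genes the counts were 9 and 12 of 21. A stricter threshold and leaving out single pools were not run, since the lists hold no scores or replicate values. No paired analysis was possible because the result comes from no test. Read depth per region is unknown, so absence from a list does not show that a mark was equal in both genotypes.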
